A study of Bubalus bubalis with 12 samples.

Results

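LRRC17, TC2N, FAM174B, JAKMIP1, SMIM10, DDIT4L and DTNBP1 are 7 genes outside the steroid pathways whose transcript levels were much lower in the corpus luteum (CL) of buffalo cows post treatment with an analogue of prostaglandin F2α (PGF2α). They were chosen by their low levels against untreated CL in these same arrays, LRRC17 at 6 h and 18 h, TC2N, FAM174B and JAKMIP1 at 18 h, DDIT4L and DTNBP1 at 6 h, and SMIM10 at 3 h. The differences from 0 h are therefore a description and carry no test. They are 7 of 9155 genes that a single-symbol probe set of the array names, and each is read by 1 probe set, so they take up 7 of the 24016 probe sets examined. No numerical limit set them apart from other genes.

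The series followed luteal gene expression in time post treatment, to set early changes apart from late ones. All animals were buffalo cows with a record of normal cycles, on day 11 of the estrous cycle. CL came from 4 untreated control cows (0 h) and from cows given 500 µg of the PGF2α analogue cloprostenol in the muscle, 2 of them at 3 h, 3 at 6 h and 3 at 18 h. Each cow gave 1 array, an Affymetrix GeneChip whose probes were designed on cattle sequence, and the 2 cows at 3 h carry the replicate numbers 1 and 3. Levels are log2 values, in which a difference of 1 unit is a doubling, and they cannot be set side by side between genes, since each probe set binds buffalo RNA with its own strength. Whole CL was measured, and treated cows were compared with other, untreated cows, with no vehicle injection named.

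PGF2α, released by the uterus, brings about regression of the CL in ruminants. It acts on receptors of luteal cells, progesterone secretion stops first, and the gland is then dismantled by cell death, loss of vessels and entry of immune cells. The 7 genes are not known as members of a common pathway. LRRC17 encodes a secreted protein with leucine-rich repeats, which in the mouse restrains the formation of bone-resorbing osteoclasts under RANKL. TC2N encodes a protein with tandem C2 domains, modules that in many proteins bind membrane lipids. JAKMIP1 binds microtubules, Janus kinases and the GABA-B receptor in mammalian neurons and lymphoid cells. DDIT4L, also known as REDD2, restrains the growth-promoting kinase complex mTORC1 in human and mouse cells. DTNBP1, dysbindin, is a subunit of BLOC-1, a complex that sorts cargo to lysosome-related organelles. FAM174B and SMIM10 encode small predicted membrane proteins of little known function.

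The arrays carried the tissue's own marks. STAR, CYP11A1 and HSD3B1, which carry cholesterol into mitochondria and turn it into progesterone, had control means of 14.80, 14.28 and 14.86. These lay near the top of a scale that ended between 15.15 and 15.33 on every array. Of other steroidogenic genes SCARB1 and FDX1 were at 14.5 each and LHCGR at 11.43. The mean of 3 follicular granulosa genes lay between 6.31 and 6.69 on the control arrays, with CYP19A1 at 8.36, AMH at 6.19 and FSHR at 4.96. Since probe sets differ in binding, these levels are only a rough guide between genes. Control replicates 1 and 4 were closer than any other pair of arrays within a time, since only 6 probe sets differed by over 2-fold between them and 220 to 1306 did so in other pairs. The labels count both as animals, so both were kept. The 2 arrays at 3 h were the least alike, with 1306 such probe sets.

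At 18 h every one of the 7 genes was lower on all 3 arrays than on any of the 4 control arrays. The differences ranged from 2.69-fold for SMIM10 to 12.1-fold for LRRC17, with a median of -2.25 on the log2 scale, where the median over all probe sets was -0.02. At 6 h and at 3 h the same was true of 5 of the 7, all but TC2N and JAKMIP1, with medians of -1.24 and -0.88. Over all probe sets, every treated array lay below every control array for 8.73% at 3 h, 14.7% at 6 h and 13.8% at 18 h. The members were picked for low levels, so nothing is read from their excess over these shares. Such shares were not counted between treated times, so a lack of overlap between those times is a description only. In whole tissue, fewer cells of a type that carries a transcript and less of the transcript per cell cannot be told apart.

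**Figure D1:**
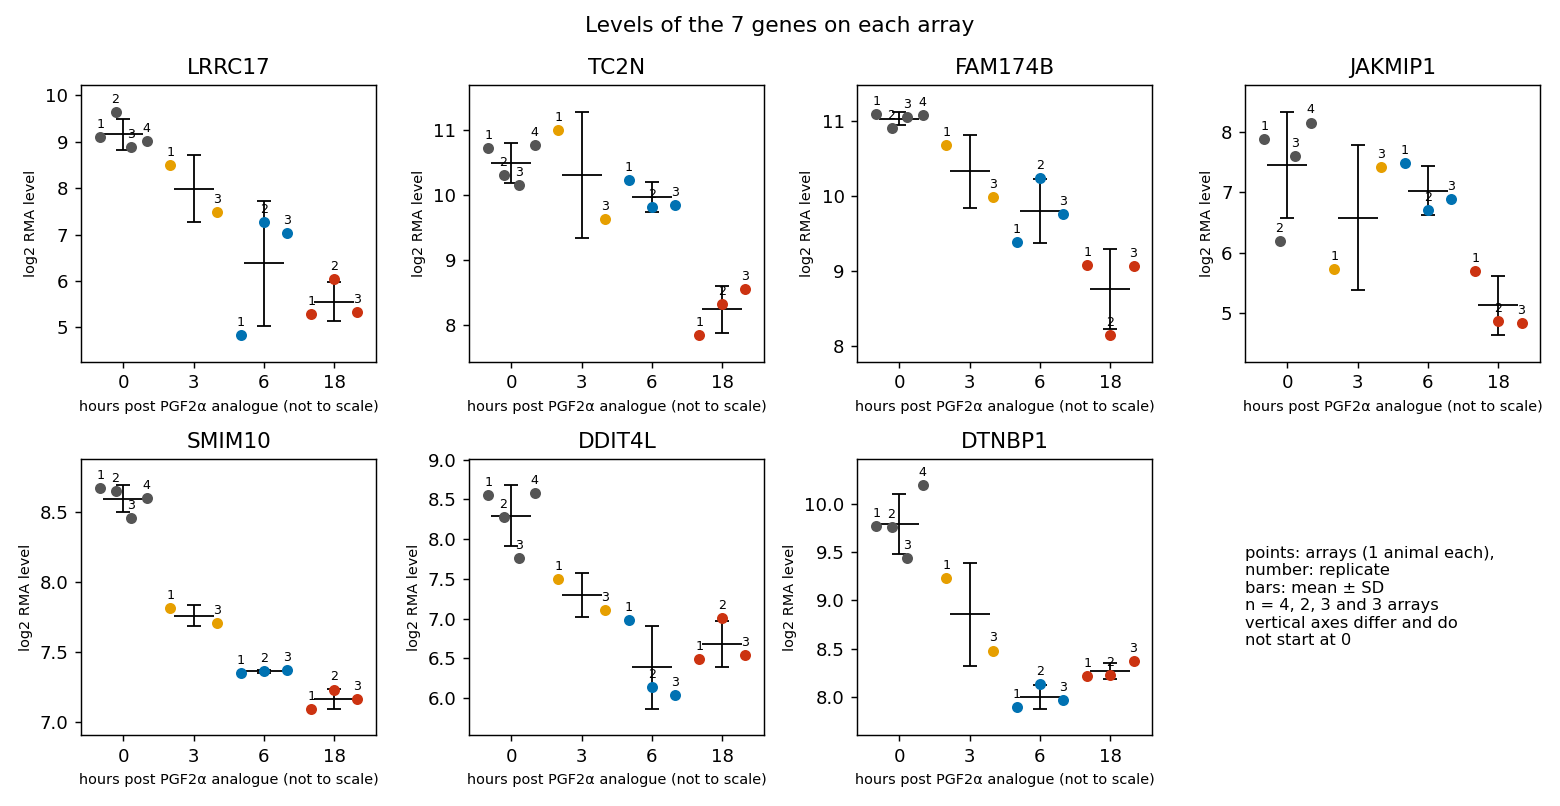
Levels of the 7 genes by time. The vertical axis of each panel is the log2 level and the horizontal axis the hours post PGF2α analogue, each point is 1 array with its replicate number, and bars give the mean ± SD over 4, 2, 3 and 3 arrays at 0, 3, 6 and 18 h. In every panel the 3 arrays at 18 h lie below the 4 control arrays, the 18 h arrays of TC2N and JAKMIP1 also lie below those of 3 h and 6 h, and DDIT4L and DTNBP1 have their lowest mean at 6 h.

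LRRC17 had the second lowest fitted difference of all probe sets at both 6 h and 18 h. Its level was 9.10, 9.64, 8.89 and 9.01 in the controls, 8.49 and 7.47 at 3 h, 4.84, 7.27 and 7.03 at 6 h, and 5.29, 6.04 and 5.33 at 18 h. The means stepped down at each time, and no treated array reached the lowest control. Means were 9.16 ± 0.33, 7.98 ± 0.72, 6.38 ± 1.34 and 5.56 ± 0.42 at 0, 3, 6 and 18 h (SD, n = 4, 2, 3 and 3). Against 0 h this was 2.26-fold lower at 3 h (log2 -1.17 ± 0.57, SE of the fit), 6.85-fold at 6 h (-2.78 ± 0.50) and 12.1-fold at 18 h (-3.60 ± 0.50), the 3 h value being -0.67 without replicate 3 and -1.68 without replicate 1. The spread at 6 h came from replicate 1, whose level of 4.84 was the lowest of LRRC17 on any array, below all arrays at 18 h. That level and those at 18 h lay below the lowest array median of 7.09. The processing can understate differences at low signal. Between 18 h and 6 h the difference was -0.83 ± 0.54 with a 95% interval of -2.0 to 0.35, and it was -1.60 without 6 h replicate 1 and -0.38 without 6 h replicate 2.

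FAM174B was lower at each successive time. It stood at 11.10, 10.90, 11.06 and 11.08 in the controls, the smallest control spread of the 7 (SD 0.09), and at 10.68 and 9.98 at 3 h, 9.39, 10.24 and 9.76 at 6 h, and 9.08, 8.14 and 9.06 at 18 h. All arrays of each treated time lay below the controls, the 3 h and 6 h arrays overlapped, and those at 18 h lay below all others. The gene was at -0.71 ± 0.29 from 0 h at 3 h, -1.24 ± 0.26 at 6 h (2.36-fold lower) and -2.28 ± 0.26 at 18 h (4.84-fold lower). At 3 h this was -0.36 without replicate 3 and -1.05 without replicate 1. The means of 6 h and 3 h use no array that chose the gene. The step between them was -0.53 ± 0.31 with an interval of -1.21 to 0.14 and did not pass the test (adjusted p = 0.519, limma). Between 18 h and 6 h it was -1.04 ± 0.28.

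TC2N was lower late. Levels were 10.73, 10.31, 10.15 and 10.77 in the controls, 11.00 and 9.62 at 3 h, 10.24, 9.82 and 9.85 at 6 h, and 7.84, 8.32 and 8.55 at 18 h. The 3 h arrays lay on both sides of the controls, 1 array of 6 h lay inside the control range, and the 18 h arrays lay more than 1 unit below every other array. The difference from 0 h was -0.18 ± 0.33 at 3 h (95% interval -0.91 to 0.55), -0.52 ± 0.29 at 6 h (interval -1.17 to 0.12) and -2.25 ± 0.29 at 18 h, 4.76-fold. At 3 h it rested on which of the 2 arrays was used, being 0.51 without replicate 3 and -0.87 without replicate 1. In the test of 6 h against 3 h TC2N did not pass, at -0.34 ± 0.35 (adjusted p = 0.745, interval -1.12 to 0.43). The later step, 18 h against 6 h, was -1.73 ± 0.32.

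JAKMIP1 also had its low level at 18 h, with wide spread before. It was at 7.88, 6.19, 7.60 and 8.15 in the controls, 5.73 and 7.42 at 3 h, 7.48, 6.71 and 6.88 at 6 h, and 5.69, 4.87 and 4.83 at 18 h. Control replicate 2 was the lowest control and lay below all 6 h arrays, and 3 h replicate 1 lay near the 18 h levels. The 18 h arrays were below all others, the highest of them (5.69) only just. Their levels also lay below the lowest array median of 7.09, and the processing can understate differences at low signal. Against 0 h the difference was -0.88 ± 0.55 at 3 h, -0.43 ± 0.49 at 6 h and -2.32 ± 0.49 at 18 h, or 5.0-fold lower. At 3 h it was -0.03 without replicate 1 and -1.72 without replicate 3, and at 6 h it was -0.85 without control replicate 2 and -0.20 without control replicate 4. The test of 6 h against 3 h gave 0.45 ± 0.58 (adjusted p = 0.812, interval -0.83 to 1.72), so the direction between these times is not settled. Between 18 h and 6 h the difference was -1.89 ± 0.52.

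SMIM10 had the smallest spread within times of the 7. Its levels were 8.67, 8.65, 8.46 and 8.60 in the controls, 7.81 and 7.71 at 3 h, 7.35, 7.37 and 7.37 at 6 h, and 7.09, 7.23 and 7.17 at 18 h. The 4 times did not overlap at all, and each lay below the one before it. That spread was 0.07 (residual SD), smaller than that of all but 2.42% of probe sets, whereas LRRC17 and JAKMIP1 were more variable than 98.7% of them. Its differences from 0 h were the smallest of the 7 at 18 h and had the smallest errors, being 1.78-fold lower at 3 h (-0.83 ± 0.09), 2.35-fold at 6 h (-1.23 ± 0.08) and 2.69-fold at 18 h (-1.43 ± 0.08). The step between 6 h and 3 h was -0.40 ± 0.10. In the test of 18 h against 6 h the difference was -0.20 ± 0.09, with an unadjusted p of 0.0475 (limma) and an adjusted p of 0.433, so the last step did not pass. The arrays of these times were 0.12 apart at the closest.

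DDIT4L was lowest at 6 h. Levels were 8.56, 8.28, 7.76 and 8.58 in the controls, 7.49 and 7.11 at 3 h, 6.99, 6.14 and 6.03 at 6 h, and 6.49, 7.01 and 6.55 at 18 h. All treated arrays were below the lowest control, and the 18 h arrays overlapped those of 6 h. The gene was at -0.99 ± 0.29 from 0 h at 3 h, -1.90 ± 0.26 at 6 h (3.74-fold lower) and -1.61 ± 0.26 at 18 h (3.05-fold lower). At 18 h against 6 h the value was 0.29 ± 0.28, within the spread, and 0.59 without 6 h replicate 1 or 0.12 without 6 h replicate 3. The test of 18 h against 3 h, whose means use no array that chose the gene, gave -0.62 ± 0.31 (adjusted p = 0.361, limma, interval -1.30 to 0.06). Every 18 h array lay below both 3 h arrays, by 0.09 at the closest. The share of all probe sets for which this holds was not counted, so nothing is read from it.

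DTNBP1 ran the same course with less spread at the late times. It measured 9.78, 9.76, 9.44 and 10.19 in the controls, 9.23 and 8.48 at 3 h, 7.90, 8.13 and 7.97 at 6 h, and 8.22, 8.23 and 8.37 at 18 h. All treated arrays again lay below the controls, and the 3 arrays at 18 h all lay above the 3 at 6 h, though below those at 3 h. The difference from 0 h was -0.94 ± 0.22 at 3 h, -1.79 ± 0.19 at 6 h (3.46-fold) and -1.52 ± 0.19 at 18 h (2.87-fold). At 3 h it was -0.56 without replicate 3 and -1.31 without replicate 1. Between 18 h and 6 h it was 0.27 ± 0.20. In the test of 18 h against 3 h DTNBP1 was at -0.59 ± 0.23 and did not pass (adjusted p = 0.226). It passed without 3 h replicate 3 (-0.96, adjusted p = 0.0382) and was at -0.21 without 3 h replicate 1, so this call turned on a single array.

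Between treated times 6 tests were made on means that use no array that chose the gene. Their spread was pooled over all 12 arrays, so the arrays of the choice still enter the errors and p. Of the 6 tests, 0 passed an adjusted p under 0.05 in limma, and 2 (SMIM10 and DTNBP1) had an unadjusted p under 0.05. Over all probe sets the shares called in these comparisons were 0.237% for 6 h against 3 h, 0.45% for 18 h against 6 h and 2.84% for 18 h against 3 h. The counts behind them, 57, 108 and 681 probe sets, ranged over 16 to 1024, 11 to 279 and 221 to 1290 when 1 array was left out, the highest for both comparisons with 3 h coming without 3 h replicate 3.

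**Figure D2:**
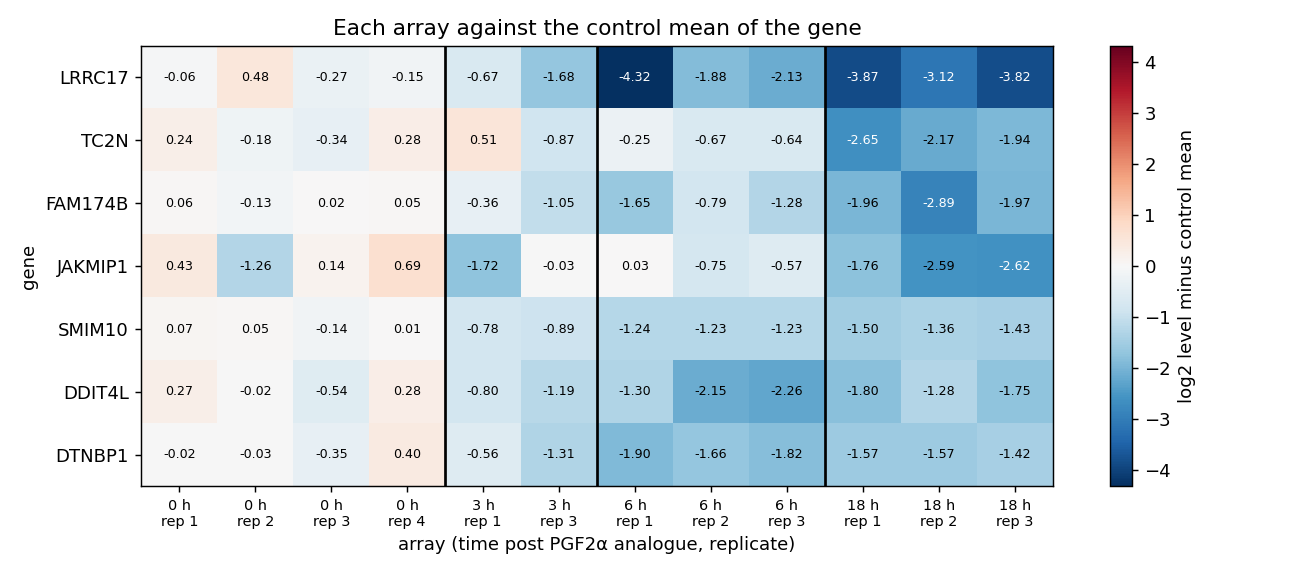
Each array against the control mean of the gene. Rows are the 7 genes, columns the 12 arrays in order of time, and colour and number give the log2 level minus the mean of the 4 controls (blue lower, red higher). LRRC17 has the deepest values, -4.32 on 6 h replicate 1 and -3.12 to -3.87 at 18 h, and TC2N on 3 h replicate 1, at 0.51, is the highest of the treated values.

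Read array by array, the mean over the 7 genes was lower on every treated array, by amounts that differed with time. The genes were picked for low levels on these same arrays. Averaged over the 7, an array lay between -0.21 and 0.22 from the control mean at 0 h, at -0.63 and -1.0 at 3 h, between -1.52 and -1.30 at 6 h and between -2.16 and -2.14 at 18 h. The 3 arrays at 18 h thus had nearly equal means, although single genes differed between them by up to 0.93 (FAM174B). On 3 h replicate 3, 6 of the 7 genes were lower than on replicate 1, JAKMIP1 being the exception. The number of genes below their own lowest control was 6 on both 3 h arrays, 5 on 6 h replicate 1, 6 on 6 h replicates 2 and 3, and 7 on all arrays at 18 h. No such count by array was made over all probe sets, so nothing is read from these numbers.

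How early each gene was lower can be described by the share of its 18 h difference, on the log2 scale, that was already there at 3 h and 6 h. SMIM10, DDIT4L and DTNBP1 had the largest shares at both times, with 58.4%, 61.7% and 61.5% at 3 h and 86.2%, 118% and 118% at 6 h. LRRC17 and FAM174B were between, with 32.6% and 31.0% at 3 h and 77.1% and 54.5% at 6 h. TC2N and JAKMIP1 had the smallest shares at 6 h, with 7.96% and 37.8% at 3 h but only 23.2% and 18.6% at 6 h, and the 3 h share of JAKMIP1 came from replicate 1. For comparison, the 354 probe sets that were called lower and at least 2-fold lower at 18 h had medians of 29.0% at 3 h (quartiles 11.0% and 47.5%) and 67.2% at 6 h (quartiles 48.6% and 83.8%), and 10.7% of them exceeded 100% at 6 h. Against these, the 6 h share of JAKMIP1 was larger than that of 4.24% and that of TC2N larger than that of 5.08%, whereas those of DTNBP1 and DDIT4L were larger than those of 96.0% and 96.6%. All shares use the same 4 controls and, at 3 h, rest on 2 arrays. DDIT4L and DTNBP1 were picked at 6 h, which favours large 6 h shares. TC2N and JAKMIP1 were picked at 18 h, which favours small ones, and the 354 probe sets were also picked at 18 h. The shares and the places of the genes among these probe sets are therefore a description, from which nothing is read.

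**Figure D3:**
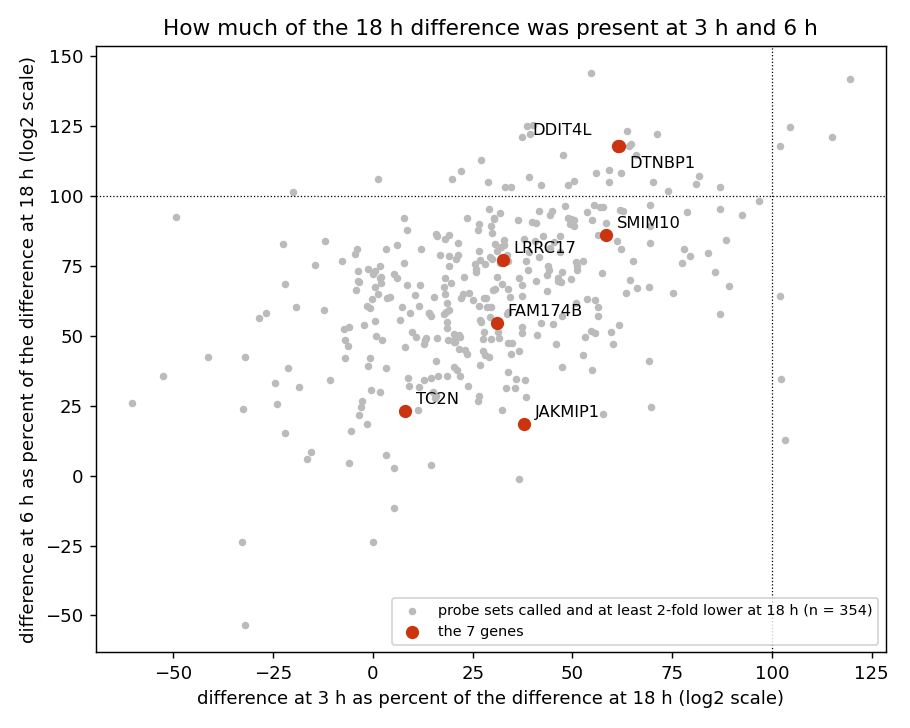
Share of the 18 h difference present at 3 h (horizontal axis) and at 6 h (vertical axis), in percent on the log2 scale. Grey points are the 354 probe sets called and at least 2-fold lower at 18 h, red points the 7 genes, and dotted lines mark 100%. DDIT4L and DTNBP1 lie above 100% at 6 h on top of each other, while TC2N and JAKMIP1 lie at 23.2% and 18.6%.

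Across the 12 arrays the levels of the 7 genes varied together, with Pearson's r between 0.41 and 0.94 over the 21 pairs and a median of 0.72. The closest pairs were SMIM10 with DTNBP1 (r = 0.94) and DDIT4L with DTNBP1 (r = 0.93), and the least alike was JAKMIP1 with DTNBP1 (r = 0.41). These points share the 4 times by which the genes were picked. With the mean of each time taken away, r ranged between -0.63 (LRRC17 with JAKMIP1) and 0.76 (TC2N with DTNBP1) with a median of 0.19, so the likeness was weaker among animals of the same time.

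The genes whose levels over the 12 arrays were most like each member were different ones for nearly all members, and TMEM177 alone was named for more than 1, LRRC17 (r = 0.96) and FAM174B (r = 0.95). For LRRC17 the closest was ANKRD29 (r = 0.97, and 0.80 within times). POLD2, a subunit of DNA polymerase delta, was closest to TC2N (r = 0.98, and 0.89 within times), with 0.04 at 3 h, -0.23 at 6 h and -1.07 at 18 h from the controls. PRKAA1, a catalytic subunit of the energy sensor AMPK, was closest to FAM174B (r = 0.97, and 0.88 within times). FREM1, an extracellular matrix protein, was closest to JAKMIP1 (r = 0.93, and 0.84 within times). For SMIM10 it was NOSTRIN, which traffics endothelial nitric oxide synthase (r = 0.98), but within times that likeness was -0.15. HABP4 was closest to DDIT4L (r = 0.98, and 0.87 within times) and, like it, was lowest at 6 h, with -1.28 at 6 h and -1.05 at 18 h. RNF187 was closest to DTNBP1 (r = 0.97, and 0.91 within times). These r values are the highest of 9155 genes over arrays of 4 shared times, and are given as a description.

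The partners and relatives of the 7 genes were called in both directions. Of 56 genes listed, 34 were measured. Against the controls, 0 were called at 3 h, 3 rose and 5 fell at 6 h, and 4 rose and 3 fell at 18 h (limma, adjusted p under 0.05 over all probe sets). Their median differences were -0.07, -0.11 and -0.09 at 3, 6 and 18 h, where those over all probe sets were -0.01, -0.04 and -0.02. Of all probe sets, 0.0167% were called lower and 0.00416% higher at 3 h, 6.08% lower and 5.26% higher at 6 h, and 6.63% lower and 5.71% higher at 18 h.

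Among the partners of dysbindin in BLOC-1 and the adaptor complex AP-3, 11 of 12 were measured, of which 1 rose and 2 fell at 6 h and 1 rose and 1 fell at 18 h. SNAPIN, a BLOC-1 subunit that also binds the SNARE protein SNAP25, had 9.92, 9.78, 9.61 and 9.90 in the controls, 9.87 and 9.36 at 3 h, 9.02, 8.98 and 9.08 at 6 h, and 8.74, 8.84 and 9.01 at 18 h. It fell by 0.78 ± 0.13 at 6 h (adjusted p = 0.00489) and by 0.94 ± 0.13 at 18 h (adjusted p = 0.00117), with no overlap with the controls at either time. BLOC1S2, another subunit, rose by 0.52 ± 0.11 at 6 h (adjusted p = 0.0145, lost without 6 h replicate 1 or 2) and 0.70 ± 0.11 at 18 h (adjusted p = 0.0025). AP3B1, the beta subunit of AP-3, fell by 0.41 ± 0.11 at 6 h in 1 of its 2 probe sets (adjusted p = 0.0403), a call lost in 9 of the 12 fits that left out 1 array. The other measured genes of this list were not called. Over all probe sets 6.08% were called lower and 5.26% higher at 6 h, and 6.63% lower and 5.71% higher at 18 h. With so few genes called, no direction of the complexes is read from these counts.

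In the mTORC1 list 13 of 16 genes were measured, of which 1 rose and 3 fell at 6 h and 1 rose and 1 fell at 18 h. RHEB, the small GTPase that switches mTORC1 on, stood at 12.35, 12.40, 12.63 and 12.38 in the controls, 12.35 and 13.27 at 3 h, 13.87, 13.53 and 13.50 at 6 h, and 13.54, 13.53 and 13.27 at 18 h. It rose by 1.19 ± 0.19 at 6 h (adjusted p = 0.00407) and 1.0 ± 0.19 at 18 h (adjusted p = 0.00606), all arrays of both times above the controls. DDIT4, the paralogue of DDIT4L and likewise a restraint on mTORC1, stood at 13.10, 12.95, 13.02 and 13.15 in the controls, 13.00 and 12.11 at 3 h, 12.03, 12.32 and 12.60 at 6 h, and 12.58, 12.04 and 11.93 at 18 h. It fell by 0.74 ± 0.22 at 6 h (adjusted p = 0.0492) and 0.87 ± 0.22 at 18 h (adjusted p = 0.0229), but the calls were lost in 9 and 4 of the 12 fits that left out 1 array. SESN1, a sestrin that restrains mTORC1 when leucine is scarce, fell by 1.12 ± 0.18 at 6 h in 1 of its 3 probe sets (adjusted p = 0.00462) and was at -0.32 ± 0.18 at 18 h (adjusted p = 0.306). EIF4EBP1, a brake on translation that mTORC1 releases, fell by 0.56 ± 0.16 at 6 h (adjusted p = 0.0462), a call lost in 9 of the 12 fits. The other measured genes of this list were not called. Over all probe sets 6.08% were called lower and 5.26% higher at 6 h, and 6.63% lower and 5.71% higher at 18 h. With so few genes called, no direction of the pathway is read from these counts. These are transcript levels, and no kinase activity was measured.

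**Figure D4:**
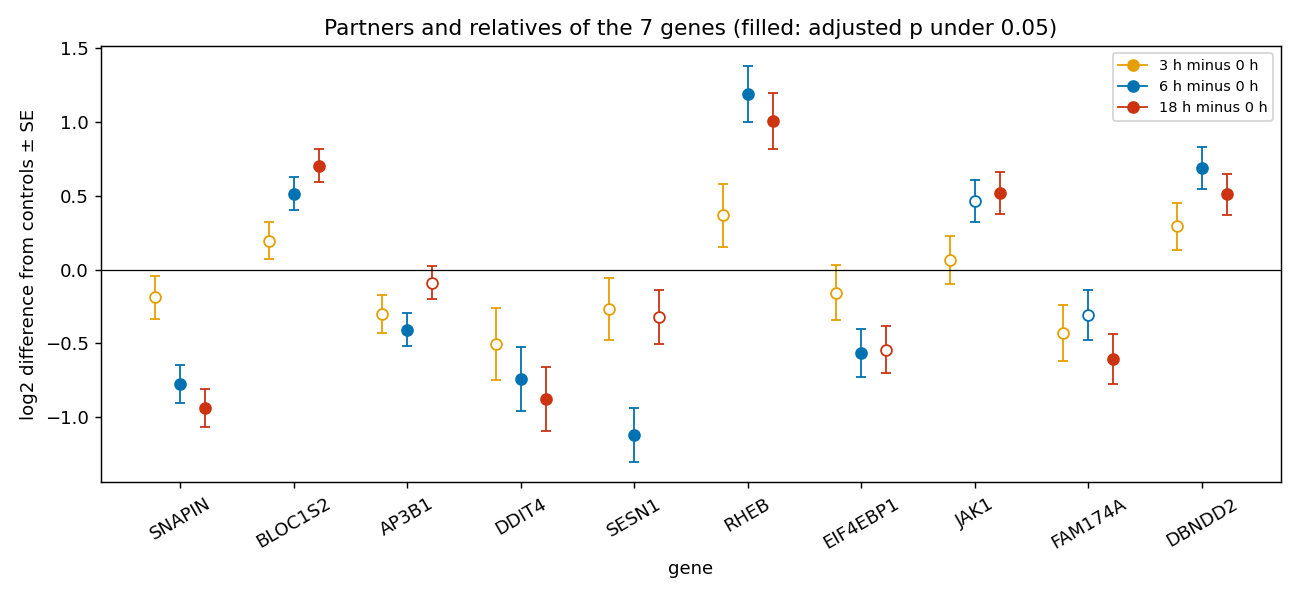
Log2 difference from the controls ± SE for the 10 called partners and relatives of the 7 genes at 3, 6 and 18 h, with n = 2, 3 and 3 treated arrays against 4 controls. Filled points passed an adjusted p under 0.05 and open points did not. SNAPIN is at -0.78 and -0.94 and RHEB at 1.19 and 1.0 at 6 h and 18 h, while no point at 3 h is filled.

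The other lists held few measured genes. For the RANKL pathway, which LRRC17 restrains in the mouse, 3 of 7 were measured (TRAF6, PLCG1 and NFATC1) and 0 passed at any time, with adjusted p between 0.147 and 0.936. RANKL itself, its receptor and its decoy receptor were not among the named probe sets. Of the Janus kinases and GABA-B receptor subunits 2 of 6 were measured, of which JAK1 rose by 0.52 ± 0.14 at 18 h (adjusted p = 0.0379, lost in 9 of the 12 fits without 1 array), and GABBR1 was at -0.15 ± 0.12 (adjusted p = 0.488). Of the relatives of the 7 genes, 6 of 16 were measured. FAM174A fell by 0.61 ± 0.17 at 18 h in 1 of its 2 probe sets (adjusted p = 0.0367, lost in 7 of the 12 fits), and DBNDD2, which shares the dysbindin domain, rose by 0.69 ± 0.14 at 6 h (adjusted p = 0.012, lost without 6 h replicate 1 or 2) and 0.51 ± 0.14 at 18 h in 1 of its 2 probe sets (adjusted p = 0.0379, lost in 7 of the 12 fits). SYTL2, a relative of TC2N with tandem C2 domains, was at -0.36 ± 0.12 at 18 h and did not pass (adjusted p = 0.0861).

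Some markers of cell types also differed from the controls at the later times. Over all probe sets, 6.08% were called lower and 5.26% higher at 6 h, and 6.63% lower and 5.71% higher at 18 h. At 3 h these shares were 0.0167% and 0.00416%, so a lack of calls at 3 h says little about the markers. The mean over 6 luteal steroidogenic genes lay between 12.83 and 13.44 at 18 h, against 13.82 and 14.20 in the controls, and 4 of the 6 (STAR, HSD3B1, LHCGR and FDX1) fell at 18 h, while 0 were called at 3 h or 6 h. LHCGR, the receptor for luteinizing hormone, fell by 2.76 ± 0.61 at 18 h in 2 of its 3 probe sets (adjusted p = 0.0128), the deepest of the 6 and in the range of the members. At 6 h LHCGR was at -1.06 ± 0.61 (adjusted p = 0.316, limma) and HSD3B1 at -0.48 ± 0.16 (adjusted p = 0.0726). At 18 h 4 of 7 endothelial genes rose, VWF among them in 1 of its 2 probe sets (list mean 8.92 to 9.06 at 18 h against 8.35 to 8.78), as did 3 of 5 fibroblast genes, PDGFRA among them in 2 of its 3 probe sets (12.86 to 13.20 against 11.58 to 12.62), 2 of 6 mural and smooth muscle genes (10.23 to 10.55 against 9.36 to 10.15) and 2 of 4 measured macrophage genes (10.13 to 10.96 against 8.73 to 10.28). In the same lists KDR (-0.53 ± 0.23), COL3A1 (-0.22 ± 0.19) and MYH11 (-0.35 ± 0.37) were lower at 18 h. They were not called, with adjusted p of 0.18, 0.525 and 0.631 (limma). At 6 h 3 endothelial, 2 mural and 1 macrophage gene had risen. KDR was then at -0.47 ± 0.23 and MYH11 at -0.61 ± 0.37, neither of them called. LCK was the only lymphocyte gene of 6 to be called, lower at 6 h in 2 and at 18 h in 1 of its 3 probe sets (list mean 6.44 to 6.78 at 18 h against 6.60 to 7.10), and 0 of 3 measured neutrophil genes were called (11.06 to 11.47 against 10.43 to 10.96). Among 3 follicular granulosa genes CYP19A1 fell at 6 h and 18 h, each time in 1 of its 4 probe sets (list mean 5.74 to 5.95 at 18 h against 6.31 to 6.69). No marker is at 0 on this scale, on which unexpressed genes keep a positive value. The part of these shifts in the lower levels of the 7 genes was not tested.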

How the data were processed

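The deposited values are on a log2 scale and were made by the authors with RMA (robust multichip average). This method removes background, equalises the distributions of the arrays and reduces the probes of a set to 1 value, and it can understate differences at low signal. Its version and the arrays processed as 1 batch were not given in the sources used here. The table held 24128 probe sets, of which 112 controls were left out. Genes were named through the platform annotation of cattle genes, with 1 symbol for 13292 probe sets, several for 86 and none for 10638. Where a gene had several probe sets the one with the highest mean was used. Array medians lay between 7.09 and 7.17.

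A model with 1 mean for each of the 4 times was fitted over the 12 arrays with limma 3.58.1 in R 4.3.3 (lmFit, contrasts.fit, eBayes), two-sided, with Benjamini-Hochberg adjustment over 24016 probe sets and a call at an adjusted p under 0.05. Errors of differences are standard errors of that fit, which shares 1 spread over all groups, and intervals are at 95%. No deposited sequence was used and no sequence or coordinate is given. The number of arrays limits the precision. The steps were tested on simulated data. The members, the gene lists and the tests were chosen with earlier results of these data known. The genes named are the 7 members, the 3 genes of highest r to each (of which the closest are given), and every called partner or relative. Of the called cell type markers only some are named. A few uncalled genes were chosen after their values were seen. The alternatives were another quantile normalization, median centring, leaving out the 40% of probe sets of lowest mean, trend and robust variance, the replicate number as a block, control replicates 1 and 4 averaged, and leaving out each array.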

Additional observations from a re-analysis of the deposited data

How the results depend on the processing

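The 7 genes kept their direction against 0 h under all 18 alternatives in 20 of 21 values, the exception being TC2N at 3 h, at 0.51 without 3 h replicate 3. Over all contrasts, 18 of 756 values moved by at least the residual SD of the gene, and all 18 left out 1 of the 2 arrays at 3 h. Against 3 h, the 6 h difference of TC2N was 0.34 and that of JAKMIP1 -0.40 without 3 h replicate 1, both opposite to the full data. The tests of TC2N, FAM174B, JAKMIP1, SMIM10 and DDIT4L stayed above the threshold under every alternative, and DTNBP1 had an adjusted p between 0.0382 and 0.682. Counts of called probe sets, 5, 2724 and 2964 at 3 h, 6 h and 18 h against 0 h, were 2, 870 and 1480 with the replicate block and 0, 1376 and 1856 with control replicates 1 and 4 averaged, and ranged over 0 to 546, 1168 to 3589 and 1542 to 3867 with 1 array left out. Between treated times, 57 (6 h against 3 h), 108 (18 h against 6 h) and 681 (18 h against 3 h) were called, 3, 10 and 227 with the replicate block, 27 and 59 for the first and second of these with the controls averaged, and 16 to 1024, 11 to 279 and 221 to 1290 with 1 array left out. Of the 34 partners and relatives 0, 8 and 7 were called at 3 h, 6 h and 18 h, 5 and 3 at 6 h and 18 h with either the replicate block or the averaged controls, and 0 to 1, 3 to 11 and 3 to 10 with 1 array left out. With either of these settings the calls of DDIT4 at both times, of AP3B1 and EIF4EBP1 at 6 h and of JAK1, FAM174A and DBNDD2 at 18 h were lost. Those of SNAPIN, BLOC1S2 and RHEB at both times and of SESN1 and DBNDD2 at 6 h were kept. Median centring ended the calls of DDIT4 and EIF4EBP1 at 6 h. The number of DDIT4L and DTNBP1 called at 18 h against 3 h was 0, and 0 to 1 with 1 array left out. The cause of these shifts was not tested. Deviations from the mean of each time correlated at -0.26 to 0.19 for same-numbered arrays and at -0.293 to 0.26 for differently numbered ones. This gave no sign that replicate numbers pair the samples. It cannot exclude pairing, since deviations within a time depend on one another. Averaging the probe sets of a gene could not be tried, each member having 1.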
